A study of Mus musculus with 112 samples.

Results

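The genes described here are those that encode the subunits of the constitutive proteasome, measured in hearts of 7 mouse strains under a control diet or caloric restriction (CR). They were taken by symbol: every gene whose symbol begins with Psma, Psmb, Psmc or Psmd, apart from the immunoproteasome genes Psmb8, Psmb9 and Psmb10. The rule found 37 members among the 19938 genes with a probe set of a single symbol. It used no measured value of diet or strain. The hearts were those of male mice of the inbred strains 129S1/SvImJ, BALB/cJ (spelled Balbc/J in the labels), C57BL/6J (spelled C57BL6/J), C3H/HeJ, CBA/J and DBA/2J and of the hybrid B6C3F1/J, which is the first-generation cross of C57BL/6J and C3H/HeJ. Every mouse was housed alone and given 84 kcal of an AIN93M-based diet a week until 8 weeks of age, then either stayed on the control diet or was restricted, and was killed after an overnight fast at 22 weeks. Per the methods of the study, food was lowered a further time for the restricted 129S1/SvImJ and C57BL/6J mice, and BALB/cJ mice received more food in both arms. Each group held 8 mice with 1 Affymetrix Mouse Gene 1.0 ST array per mouse. DBA/2J CR replicate 7 was left out, since its signals correlated at 0.262 with the mean of its own group, which left 56 control and 55 CR hearts.

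The proteasome is the large protease that degrades proteins tagged with ubiquitin. Its 20S core is a barrel of outer rings of alpha subunits, which form the gate, and inner rings of beta subunits, some of which cut the substrate. The 19S regulatory particle caps the core: a ring of ATPases unfolds the substrate, and the non-ATPase subunits bind ubiquitin, remove it and hold the base and the lid of the cap together. In the heart, whose muscle cells rarely divide, the proteasome clears damaged and surplus sarcomeric and other proteins.

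By role, the members were 8 alpha ring genes, 8 beta ring genes, 6 ATPases, 11 non-ATPase subunits and 3 genes with Psmd symbols (Psmd5, Psmd9 and Psmd10) whose products are chaperones of 19S assembly and not part of the finished particle. The remaining member, Psmc3ip, shares only the letters of its symbol: it encodes a partner in meiotic recombination. Psma8 and Psmb11 are known from testis and thymus, and both lay under the 40th percentile of mean signal among all genes. Of the 37 members, 32 lay above the 75th percentile. The values are log2 signals scaled to 1 level across arrays by the authors, so a difference of log2 signal between groups of 1 gene can be read as a fold change, while levels of different genes, read by different probes, cannot be ranked. A gene was called when its adjusted p from limma, a linear model that borrows the spread between mice across genes, with Benjamini-Hochberg adjustment over all 19938 genes (2-sided), was under 0.05.

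The arrays correlated at a median of 0.993 with their own group. A further 6 arrays stood apart from their group in this measure, the lowest of them CBA/J control replicate 1 at 0.894. Ventricular cardiomyocyte markers were bright in every heart (mean log2 signal over 10 markers of 11.0 or more). The 8 atrial markers were not called in either direction across strains, but their mean log2 signal differed between CR and control by -1.96 in C57BL/6J and by 1.08 in B6C3F1/J, and that of 7 white adipocyte markers by -1.28 and 0.735. Of the 9 endothelial markers 5 were called lower in CR, and of the 8 macrophage markers 4 were called higher. A smaller share of a cell type and less RNA per cell cannot be told apart in whole-tissue arrays.

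CR was compared with control first across the 7 strains, giving each strain the same weight. Psmb2 rose the most of all members and Psmd11 fell the most. The rises were genes of the 20S rings and the deubiquitinase gene Psmd14, and both falls were non-ATPase subunits of the 19S particle. Of the 37 members 7 were called, which is 18.9% beside 12% of all genes. 5 were higher in CR, where 7.69% of all genes were called higher, and 2 were lower, where 4.34% of all genes were called lower. Without genes under the 40th percentile, Psma8 and Psmb11 among them, 11 members and 21.4% of the genes tested were called. The changes were small, between -0.18 and 0.19 on the log2 scale. The median difference over the members was 0.05, beside -0.0026 over all genes, with 28 members above 0 and 9 below. The CR mean was higher in 7 of 7 strains for 2 members (4.87% of all genes) and in at least 6 for 10 (15% of all genes).

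**Figure D1:**
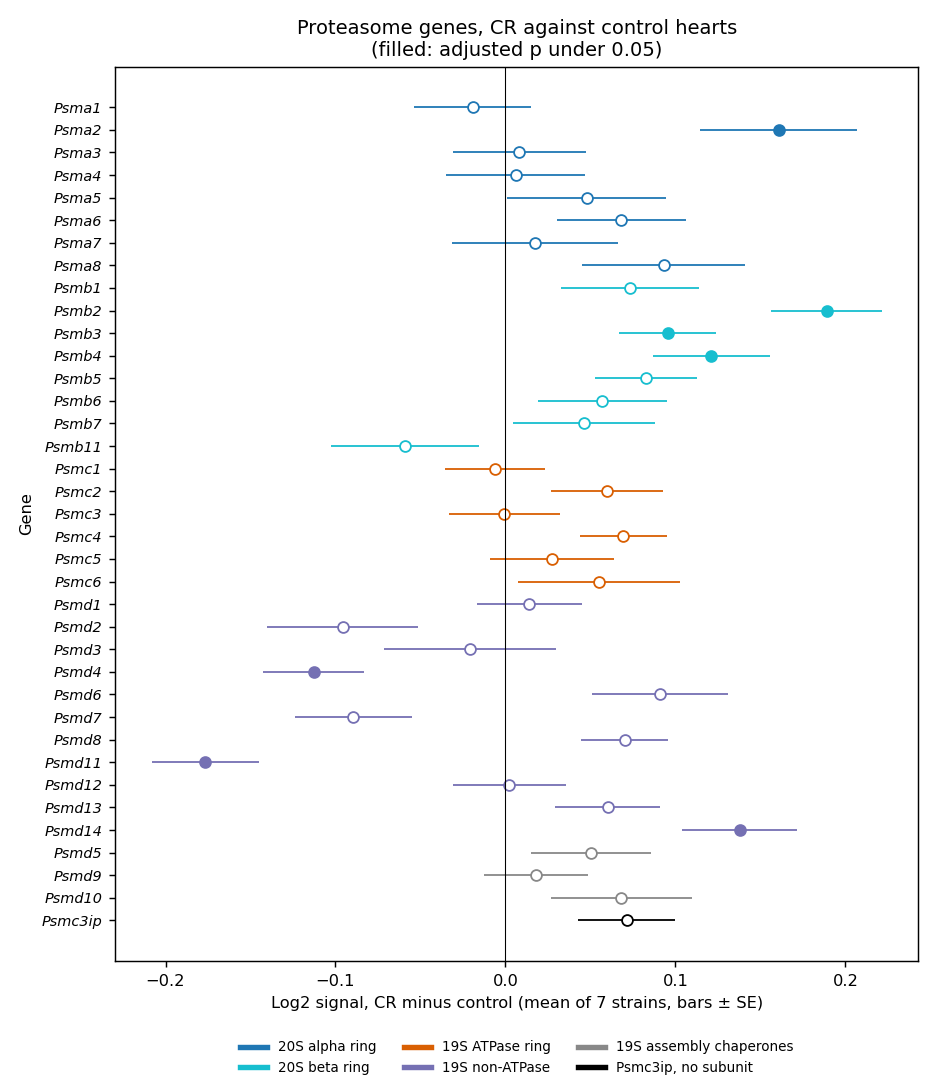
CR minus control difference in log2 signal (x axis, mean of the 7 strains, bars ± SE) of each of the 37 members (y axis), grouped and coloured by role, with filled points for adjusted p under 0.05. The 5 filled points to the right of 0 are Psma2, Psmb2, Psmb3, Psmb4 and Psmd14, and the 2 to the left are Psmd4 and Psmd11, while all 6 ATPase genes are unfilled.

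To show the sequence upstream of the genes that moved, the promoters of the 6 called members with an entry in the promoter table are printed, from 250 bases before to 50 bases after the start of transcription, in the orientation of the gene. They are RefSeq sequences of the mouse build GRCm38.p6. Psmb2, whose gene lies at chr4:126677637-126709715, had no entry. Capitals mark CCAAT or its reverse complement ATTGG, which is the core of the site of the factor NF-Y, and CCGGAAG or CTTCCGG, the core of sites of ETS factors. A further motif, TGACNNNGC, the core of the antioxidant response element that Nfe2l1 and Nfe2l2 bind, was searched on both strands too and was found in none of the 6. The 4 promoters of genes that rose in CR come first.
Psma2, chr13:14612992-14613291, plus strand: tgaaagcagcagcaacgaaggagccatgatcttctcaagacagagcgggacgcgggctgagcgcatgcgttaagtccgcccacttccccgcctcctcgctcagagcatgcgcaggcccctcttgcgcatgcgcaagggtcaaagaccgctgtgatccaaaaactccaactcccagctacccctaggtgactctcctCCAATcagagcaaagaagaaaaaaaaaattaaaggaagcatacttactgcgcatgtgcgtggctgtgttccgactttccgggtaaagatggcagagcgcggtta
Psmb3, chr11:97703184-97703483, plus strand: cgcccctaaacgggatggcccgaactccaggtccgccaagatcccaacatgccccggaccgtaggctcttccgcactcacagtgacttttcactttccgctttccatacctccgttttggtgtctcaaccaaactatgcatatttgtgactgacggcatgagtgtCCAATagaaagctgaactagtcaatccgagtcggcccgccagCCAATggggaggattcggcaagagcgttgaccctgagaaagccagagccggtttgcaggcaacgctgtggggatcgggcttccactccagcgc
Psmb4, chr3:94886909-94887208, minus strand: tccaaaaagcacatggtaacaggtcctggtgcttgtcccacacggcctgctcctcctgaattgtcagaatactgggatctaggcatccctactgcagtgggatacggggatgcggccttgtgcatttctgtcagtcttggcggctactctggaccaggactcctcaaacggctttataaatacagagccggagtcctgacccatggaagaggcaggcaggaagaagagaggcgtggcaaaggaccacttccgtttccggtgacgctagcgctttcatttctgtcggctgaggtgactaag
Psmd14, chr2:61711444-61711743, plus strand: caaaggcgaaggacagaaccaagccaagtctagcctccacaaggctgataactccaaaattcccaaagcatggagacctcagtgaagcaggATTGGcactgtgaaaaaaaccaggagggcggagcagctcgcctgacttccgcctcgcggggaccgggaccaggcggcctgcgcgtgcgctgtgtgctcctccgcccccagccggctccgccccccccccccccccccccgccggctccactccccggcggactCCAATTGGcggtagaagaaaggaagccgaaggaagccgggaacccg
The 2 promoters of genes that fell in CR follow.
Psmd11, chr11:80428365-80428664, plus strand: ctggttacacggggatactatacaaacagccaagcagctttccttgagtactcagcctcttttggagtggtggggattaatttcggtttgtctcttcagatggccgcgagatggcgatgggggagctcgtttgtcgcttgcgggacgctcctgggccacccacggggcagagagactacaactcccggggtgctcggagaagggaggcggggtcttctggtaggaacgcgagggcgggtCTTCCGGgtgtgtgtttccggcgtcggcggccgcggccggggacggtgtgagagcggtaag
Psmd4, chr3:95042565-95042864, minus strand: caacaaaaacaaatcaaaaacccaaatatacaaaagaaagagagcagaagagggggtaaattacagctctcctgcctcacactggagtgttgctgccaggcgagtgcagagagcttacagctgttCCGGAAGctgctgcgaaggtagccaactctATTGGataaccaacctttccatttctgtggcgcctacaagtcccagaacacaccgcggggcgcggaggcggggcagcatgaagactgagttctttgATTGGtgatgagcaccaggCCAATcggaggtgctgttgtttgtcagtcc
CCGGAAG was present in both promoters of the falling genes and in none of the 4 of the rising genes. CCAAT was present in Psma2, Psmb3, Psmd14 and Psmd4, and in Psmd14 a CCAAT and an ATTGG shared 2 bases. Over the 32 promoters of the 30 members that were searched, CCGGAAG was found in 37.5% (8.9% of the 32851 promoters of the same length in the table), CCAAT in 40.6% (37.4%) and TGACNNNGC in 15.6% (12.4%). The TGACNNNGC letters were found in Psmb5, Psmb6, Psmc6, Psmd9 and Psmd12, none of them called across strains. The median log2 CR difference was 0.055 over the 11 genes with CCGGAAG and 0.051 over the 19 without. A match of letters is a description of the sequence and not evidence of a bound factor.

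Among the 8 alpha ring genes, Psma2 rose and the other 7 were not called. Psma2 had a log2 signal between 7.36 and 8.86 in control hearts (median 7.98) and between 7.56 and 8.71 in CR hearts (median 8.12), so the diets overlapped widely. The CR mean was higher in 7 of 7 strains, by 0.16 ± 0.0461 (SE) on the log2 scale across strains, a fold change of 1.12 (adjusted p = 0.0106). The differences of the other alpha genes ran from -0.019 to 0.093. The highest of these belonged to Psma8, the testis form (0.093 ± 0.0481, adjusted p = 0.213). The 3 probe sets of Psma3 gave log2 differences of 0.0082, 0.0156 and 0.0117.

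In the beta ring 3 of 8 genes rose, and all 3 encode subunits that do not cut. Psmb2 had log2 signals from 9.72 to 10.7 in control hearts (median 10.4) and from 9.58 to 10.9 in CR hearts (median 10.5). It was higher in CR in 7 of 7 strains, by 0.19 ± 0.0325 on the log2 scale or 1.14-fold (adjusted p = 6.24e-06). The diets overlapped when strains were pooled, and the plot of single hearts shows how they lay within each strain.

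**Figure D2:**
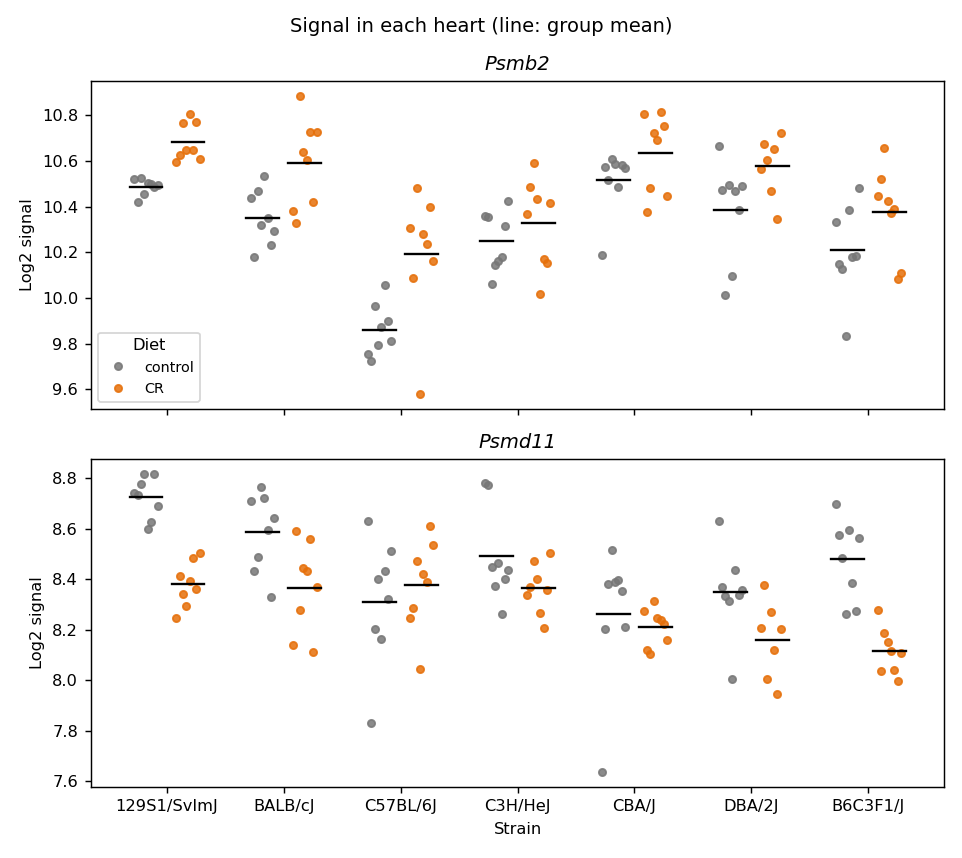
Log2 signal (y axis) of Psmb2 (upper panel) and Psmd11 (lower panel) in each heart used, by strain (x axis) and diet (grey, control; orange, CR), with a line at each group mean. In 129S1/SvImJ all 8 CR hearts lie above all controls for Psmb2 and below all controls for Psmd11, and in C57BL/6J CR replicate 4 lies under its group at 9.58 for Psmb2.

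In 129S1/SvImJ, Psmb2 signals were 10.4 to 10.5 in control and 10.6 to 10.8 in CR hearts, with no overlap. In C57BL/6J, 7 of 8 CR hearts exceeded the highest control and the eighth, replicate 4, lay below the lowest. C57BL/6J also had the largest mean difference (0.33 ± 0.108) and C3H/HeJ the smallest (0.08 ± 0.0819).

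Psmb4 rose by 0.12 ± 0.0346 (1.09-fold, adjusted p = 0.0103) and was higher in CR in 5 of 7 strains. Its control hearts ran from 8.76 to 10.3 (median 10.1) and its CR hearts from 9.74 to 10.4 (median 10.2). The control value of 8.76 came from CBA/J control replicate 1, and without that array the difference was 0.097 (adjusted p = 0.00317). Psmb3, measured between 10.7 and 11.6 in control (median 11.1) and between 10.8 and 11.7 in CR hearts (median 11.2), rose by 0.095 ± 0.0285 (1.07-fold, adjusted p = 0.0146), with 5 of 7 strains higher. Its other probe set differed by 0.10 ± 0.0337 (adjusted p = 0.0312). The catalytic subunit genes Psmb5 (0.083, adjusted p = 0.0567), Psmb6 (0.057, adjusted p = 0.366) and Psmb7 were not called, nor were Psmb1 or the thymus gene Psmb11 (-0.059 ± 0.0434, adjusted p = 0.423).

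None of the 6 ATPase genes was called. Their differences ran from -0.0062 to 0.069 with a median of 0.041. Psmc4 lay closest to the threshold (0.069 ± 0.0256, adjusted p = 0.0603). Psmc3 was at -0.00072 ± 0.0327. At an unadjusted p under 0.05, 1 of the 6 passed, as did 4970 of all 19938 genes.

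The 11 non-ATPase genes divided into 1 called rise and 2 called falls. Psmd14 encodes the metalloprotease of the lid that cuts the ubiquitin chain off a substrate. It had log2 signals of 8.4 to 9.36 in control (median 8.97) and 8.57 to 9.53 in CR hearts (median 9.09), higher in CR in 6 of 7 strains by 0.14 ± 0.0338 (1.1-fold, adjusted p = 0.00213). DBA/2J was the strain without the rise (-0.022 ± 0.0856).

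Psmd11 encodes the lid subunit that clamps the lid to the core and is needed for assembly of the 26S particle. Its signals ran from 7.64 to 8.82 in control hearts (median 8.44) and from 7.95 to 8.61 in CR hearts (median 8.28), and the lowest control was again CBA/J replicate 1. It was lower in CR in 6 of 7 strains, with a log2 difference of -0.18 ± 0.0317 (control 1.13-fold above CR, adjusted p = 1.47e-05). C57BL/6J was the exception (0.064 ± 0.111). Psmd11 was called under each of the 24 other settings run, with adjusted p-values between 8.68e-10 and 0.00588.

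Psmd4 encodes a ubiquitin receptor of the cap. It ran from 7.46 to 8.28 in control (median 7.84) and from 7.21 to 8.1 in CR hearts (median 7.73), lower in CR in 5 of 7 strains with a log2 difference of -0.11 ± 0.0298 (adjusted p = 0.00487). The fall rested mainly on 129S1/SvImJ and B6C3F1/J: without the first it was -0.081 (adjusted p = 0.132), without the second -0.077 (adjusted p = 0.119). Psmd7, the partner of Psmd14 in the lid, and Psmd2, a scaffold of the base, were not called, at -0.09 (adjusted p = 0.0739) and -0.096 (adjusted p = 0.157). Both were called lower without CBA/J control replicate 1, at -0.10 (adjusted p = 0.0127) and -0.13 (adjusted p = 0.00418), and Psmd8 (0.08, adjusted p = 0.0103) and Psmc3ip (0.078, adjusted p = 0.0408) were called higher, which made 11 members in a fit that called 15.2% of all genes. The other probe set of Psmd2, with all arrays used, differed by -0.0716 ± 0.0468 (adjusted p = 0.353). All other Psmd2 values given here come from the brighter set. Either set may read a copy of the gene, which was not checked.

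The 3 assembly chaperone genes were not called: Psmd5 differed by 0.051 ± 0.0354, Psmd9 by 0.018 ± 0.0305 and Psmd10 by 0.068 ± 0.0417. Psmc3ip, the meiotic gene, was dim (log2 signal 4.81 to 5.81 in control and 4.97 to 5.58 in CR hearts) and differed by 0.071 ± 0.0286 (adjusted p = 0.0901).

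Some calls depended on 1 strain or 1 array. Without 129S1/SvImJ, 3 members stayed called, Psmb2, Psmd14 and Psmd11 (6.21% of all genes were called). With DBA/2J CR replicate 7 put back, a single member was called, Psmd11 (5.35% of all genes). With the atrial and white adipocyte marker levels as covariates, Psmb2 differed by 0.189 and Psmd11 by -0.177, and 11 members and 15.4% of all genes were called.

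Within strains, each on its own arrays, most calls of members were made in 129S1/SvImJ hearts. There 7 of 37 members were called, which is to be read beside 6.83% of all genes: 3 higher (3.88% of all genes) and 4 lower (2.94%). All 4 falls were non-ATPase subunits of the 19S cap. With genes under the 40th percentile left out, Psma8 and Psmb11 among them, 8 members were called here, beside 16.2% of the genes tested. Psmd11 fell from 8.73 ± 0.082 to 8.38 ± 0.0884 (mean ± SD, n = 8 each), a log2 difference of -0.35 ± 0.0567 (SE, adjusted p = 0.000696). Psmd4 fell from 8.15 ± 0.137 to 7.85 ± 0.147 (-0.30 ± 0.0738, adjusted p = 0.0153). For Psmd11 no CR heart reached the lowest control, whereas the Psmd4 hearts of both diets shared a range from 7.9 to 8.01. The other falls were Psmd7 (-0.26, adjusted p = 0.0398) and Psmd2 (-0.21, adjusted p = 0.0362). In this strain the mean log2 signal of the endothelial markers differed between CR and control by -0.287 and that of the macrophage markers by 0.225, and their part in these values was not tested.

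The 3 rises in 129S1/SvImJ were Psmc3ip (from 5.14 ± 0.119 to 5.41 ± 0.12, adjusted p = 0.0207), Psma2 (from 7.89 ± 0.103 to 8.15 ± 0.146, adjusted p = 0.0257) and Psmb2 (from 10.5 ± 0.0357 to 10.7 ± 0.0837, adjusted p = 0.0252). The greatest rise in this strain was thus that of the meiotic gene, at 0.26 ± 0.0667. Psma2 was close to it at 0.26 ± 0.0688. Groups that did not overlap were found for Psmb2 and Psmd11 in 129S1/SvImJ (1.83% of all genes in that strain) and for no member in another strain, where they were found for 0.0451% to 0.326% of all genes.

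In B6C3F1/J the single called member was again Psmd11 (0.908% of all genes were called, 0.697% lower). It fell from 8.48 ± 0.158 to 8.12 ± 0.0917 (mean ± SD, n = 8 each), a log2 difference of -0.37 ± 0.0796 (adjusted p = 0.0341), and 7 of 8 CR hearts lay below the lowest control. The call was lost after a second quantile normalization. Psmd7 (-0.29, adjusted p = 0.0721), Psmd4 (-0.33, adjusted p = 0.0796) and Psmd2 (-0.35, adjusted p = 0.0982), which were called lower in 129S1/SvImJ, were not called here. Psmd3 at -0.41 ± 0.138, the lowest member value in this strain, and Psmc6 at 0.33 ± 0.174, the highest, were not called either (adjusted p = 0.124 and 0.271). Atrial and adipocyte markers were higher in the CR hearts of this strain, as given above, the endothelial markers differed by -0.324 and the macrophage markers by 0.332, and their part in these values was not tested.

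**Figure D3:**
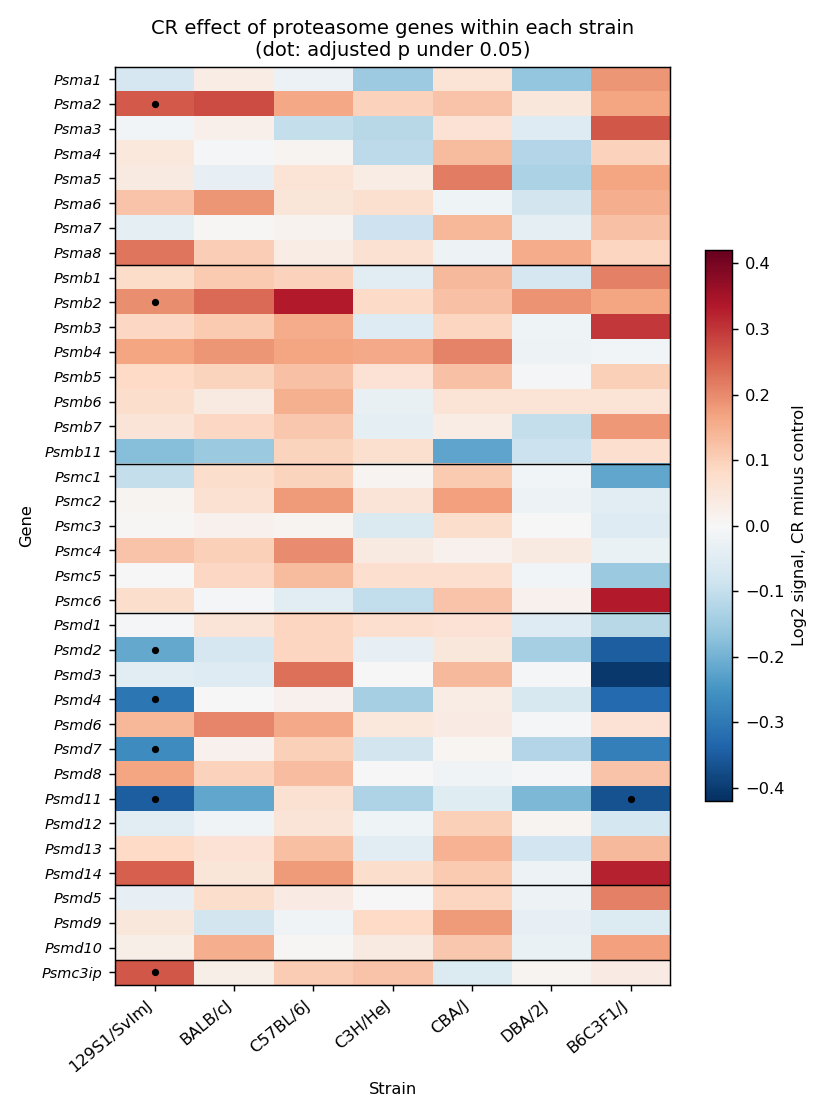
CR minus control difference in log2 signal (colour; red, higher in CR; blue, lower) of each of the 37 members (y axis, grouped by role) in each strain (x axis), with a dot where the adjusted p within the strain was under 0.05. Of the 8 dots 7 are in 129S1/SvImJ and 1, Psmd11, in B6C3F1/J.

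No member was called in the other 5 strains, where the share of all genes called was 0% in BALB/cJ, 0.251% in C57BL/6J, 0.0552% in C3H/HeJ, 0.0150% in CBA/J and 0.01% in DBA/2J. By limma, an unadjusted p under 0.05 was found for 6 members in BALB/cJ (6.52% of all genes), 3 in C57BL/6J (12.6%), 2 in C3H/HeJ (7.34%), 1 in DBA/2J (5.11%) and 0 in CBA/J (6.77%). The median member difference was 0.094 in C57BL/6J, 0.091 in both CBA/J and B6C3F1/J, 0.055 in BALB/cJ, 0.045 in 129S1/SvImJ, 0.00055 in C3H/HeJ and -0.022 in DBA/2J, while the median of all genes lay between -0.003 and 0.0116. In the fit of all groups, which shares 1 spread between strains, 3 members were called in 129S1/SvImJ (2.30% of all genes), 8 in B6C3F1/J (14.2%) and 1 in C57BL/6J (4.91%). By sign, 33 of 37 members were above 0 in C57BL/6J and 9 of 37 in DBA/2J. Without the array that stood apart in each of these strains the median was 0.117 in C57BL/6J, 0.055 in CBA/J, 0.035 in B6C3F1/J, 0.023 in BALB/cJ, -0.0083 in C3H/HeJ and -0.044 in DBA/2J. The medians of the subunit groups are given as a description, with no test. In B6C3F1/J the median of the 7 alpha genes other than Psma8 was 0.164 and that of the 7 beta genes other than Psmb11 0.167, beside -0.05 over the ATPases and -0.117 over the non-ATPase genes, although Psmc6 (0.33) and Psmd14 (0.32) of the cap were above 0. Without the array that stood apart in this strain these medians were 0.116, 0.126, -0.089 and -0.108. In 129S1/SvImJ the same medians were 0.037, 0.084, 0.0095 and -0.044. In C57BL/6J all 4 were above 0 (0.015, 0.148, 0.114 and 0.1) and in DBA/2J all 4 were below 0 (-0.077, -0.017, -0.0054 and -0.054). Without the array that stood apart in each, the alpha median in C57BL/6J was -0.024 and the other 3 stayed above 0, and in DBA/2J all 4 stayed below 0. Members varied together from heart to heart, as given below, so their signs are not separate observations. In C57BL/6J atrial and white adipocyte markers were lower in CR hearts, as given above. The ventricular cardiomyocyte markers differed by 0.395 and the fibroblast markers by -0.449, and the part of these markers in the values of this strain was not tested.

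By the methods' t-test at an unadjusted p under 0.01 within a strain, Psmb2, Psmb4, Psmd2, Psmd4, Psmd7 and Psmd11 were on the lists of 2 strains, and no member was on more. In all, 10 members were on at least 1 list. The other 27 of 37 members were on 0 lists, as were 15717 of 19938 genes. Exactly 2 lists held 6 members and 766 of all genes. Of all genes, 176 were on 3 lists, 65 on 4, 22 on 5 and 6 on 6. The list of 129S1/SvImJ held 8 members (10.6% of all genes were on it), that of B6C3F1/J 5 (6.47%), that of C57BL/6J 2 (4.07%) and that of C3H/HeJ 1 (2.18%). Those of BALB/cJ (1.77%), CBA/J (1.91%) and DBA/2J (1.40%) held none.

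Whether the CR difference of a member differed between strains was tested with the interaction of strain and diet. The food given differed by strain, as described above, so strain and degree of restriction cannot be told apart in this test. Per the study, body weight was significantly lower under CR in every strain but BALB/cJ. No member was called (limma, 0 of 37; 0.712% of all genes), and 6 had an unadjusted p under 0.05 (14.7% of all genes did). The 4 with the smallest p were Psmd4 (adjusted p = 0.125), Psmd11 (adjusted p = 0.146), Psmd7 (adjusted p = 0.261) and Psmb3 (adjusted p = 0.305). For Psmd4 the strain differences ran from -0.33 in B6C3F1/J to 0.031 in CBA/J. For Psmb3 they ran from -0.056 in C3H/HeJ to 0.30 in B6C3F1/J. So the changes in 129S1/SvImJ and B6C3F1/J were not shown to differ from those of the other strains on all arrays. Without all arrays that stood apart, 5 members were called for the interaction, Psmd11 (adjusted p = 0.00907), Psmd4 (0.0242), Psmd7 (0.0268), Psmd3 (0.0317) and Psmd2 (0.0367), in a fit that called 9.18% of all genes.

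Most members differed in level between strains. In control hearts 29 of 37 members differed between strains (60.7% of all genes) and in CR hearts, which are other mice, 27 of 37 (59.6% of all genes). Calls in both diets were made for 26 members and for 9635 of all 19938 genes. Most members were bright, and dim genes are part of these shares. With genes under the 40th percentile left out, 29 and 27 members were called, beside 79.6% and 76.6% of the genes tested. That filter also took out 2 of the 37 members, Psma8 and Psmb11, so these counts are not out of 37. Before the filter, all 6 ATPases and 7 of 8 alpha genes differed in both diets. The 8 members not called in control hearts were Psma5, Psmb4, Psmb11, Psmc3ip, Psmd9, Psmd10, Psmd12 and Psmb7. The median distance between the lowest and the highest strain mean was 0.436 in control and 0.363 in CR hearts, beside 0.39 in both diets over all genes. Probes were designed on a reference sequence, so a strain difference in transcript level and one in how well the probes match the strain cannot be told apart here.

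The member with the smallest p between strains in control hearts was Psmb6, the gene of the caspase-like catalytic subunit. Its mean log2 signal in control hearts was lowest in DBA/2J (8.32 ± 0.219, mean ± SD, n = 8), then BALB/cJ (8.64 ± 0.211), CBA/J (8.78 ± 0.163), 129S1/SvImJ (8.94 ± 0.108), C3H/HeJ (8.95 ± 0.138), C57BL/6J (9.08 ± 0.216) and B6C3F1/J (9.08 ± 0.184), a range of 1.7-fold (adjusted p = 7.88e-11). DBA/2J stood below its neighbour by more than either SD, and the other neighbours in this order lay closer together than the larger of their SDs. In CR hearts DBA/2J was lowest again (8.38 ± 0.17) and C57BL/6J highest (9.23 ± 0.0827, adjusted p = 2.69e-11).

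Psmb2 was lowest in C57BL/6J control hearts (9.86 ± 0.111) and highest in CBA/J (10.5 ± 0.138), a range of 1.57-fold (adjusted p = 6.17e-10). C57BL/6J was lowest in CR hearts too (10.2 ± 0.277), with 129S1/SvImJ highest (10.7 ± 0.0837). The hybrid B6C3F1/J stood at 10.2 ± 0.197 in control hearts, near its parent C3H/HeJ at 10.2 ± 0.129 and above its parent C57BL/6J.

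Psmc3, an ATPase gene, was lowest in DBA/2J (7.99 ± 0.138) and highest in 129S1/SvImJ (8.45 ± 0.137, adjusted p = 9.43e-08) in control hearts, and the same strains were at the ends in CR hearts (7.99 and 8.46). Psma4, an alpha ring gene, was lowest in CBA/J (8.19 ± 0.181) with DBA/2J beside it (8.2 ± 0.12), and was highest in C57BL/6J (8.87 ± 0.327, adjusted p = 1.36e-07), where it also stood above the hybrid (8.48 ± 0.241). No single strain was therefore low or high for all 4 genes: C57BL/6J had the lowest Psmb2 and the highest Psma4.

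**Figure D4:**
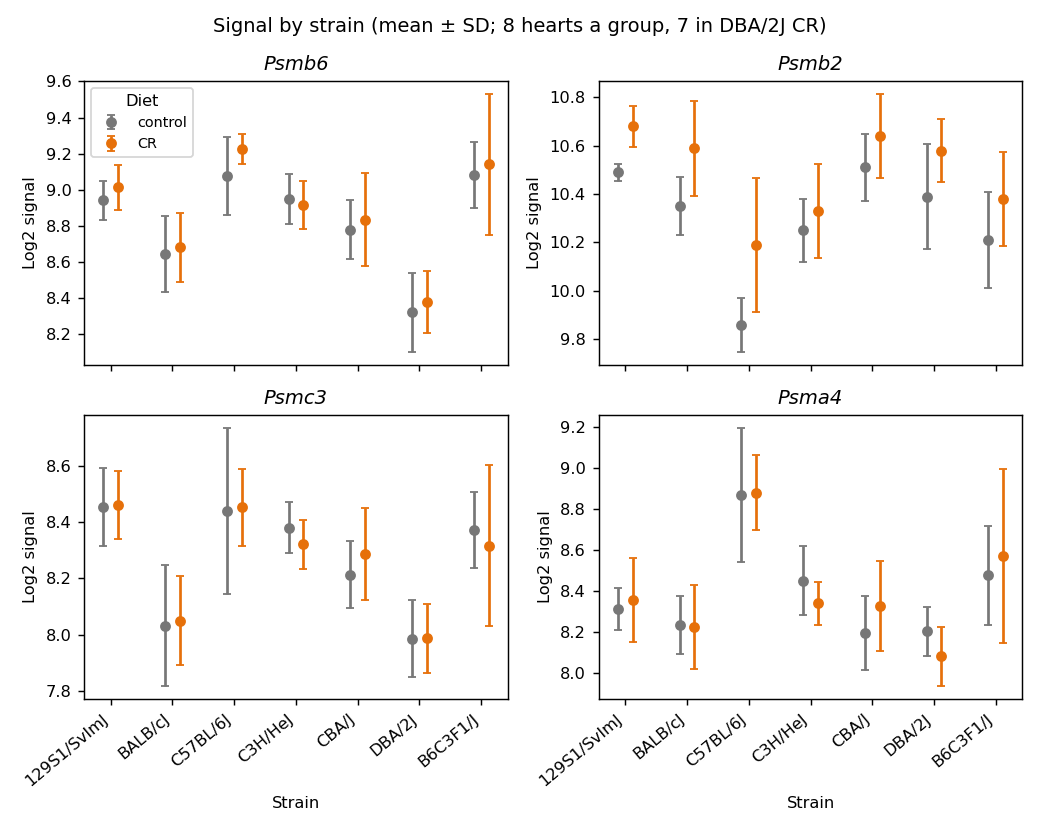
Mean log2 signal (y axis, bars ± SD) of Psmb6, Psmb2, Psmc3 and Psma4 by strain (x axis) in control (grey) and CR hearts (orange), 8 hearts a group and 7 in DBA/2J CR. DBA/2J is lowest for Psmb6 and Psmc3 in both diets, and C57BL/6J is lowest for Psmb2 and highest for Psma4.

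The members also varied together from heart to heart within a group. Each signal was taken as its deviation from the mean of its strain and diet group, and the correlation was computed over all hearts used, 56 control and 55 CR. The values share the array and its normalisation, so they describe these arrays and carry no test. Over the 465 pairs of the 31 constitutive subunits (all members but Psma8, Psmb11, Psmc3ip and the 3 chaperones) the median Pearson's r was 0.426, beside -0.0005 over pairs of all genes, and 51 pairs were below 0. Without the arrays that stood apart the median was 0.427 in 105 hearts. The alpha ring genes were the tightest, with a median r of 0.676 among themselves. The other medians were 0.549 among the ATPases, 0.396 among the non-ATPase genes, 0.384 among the beta genes and 0.252 between the alpha and the non-ATPase genes.

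The closest pair was Psmc6 and Psma3 (r = 0.878, Spearman's rho = 0.855, and r = 0.858 without the 2 hearts farthest from the median of Psmc6). Psma7 and Psma4 followed (r = 0.872, rho = 0.808). At the other end Psmd3 ran against Psma3 (r = -0.643, rho = -0.582) and against Psmc6 (r = -0.566, rho = -0.468), with values of -0.636 and -0.577 without the arrays that stood apart. Psmd2 was closest to Psmd3 (r = 0.816), Psmd11 (0.756), Psmd1 (0.692), Psmc5 (0.662), Psmd7 (0.659) and the 20S gene Psmb4 (0.648), which was higher in CR across strains. Without the arrays that stood apart these 6 values were 0.645, 0.665, 0.438, 0.497, 0.401 and 0.211. Psmd4, lower in CR in 129S1/SvImJ as Psmd2, Psmd7 and Psmd11 were, correlated with Psmd2 at 0.189. Psmd3 and Psmc3ip correlated least with the mean of the other subunits apart from Psmb11 (0.056 and 0.0994), while Psmd12 (0.842) and Psmb7 (0.838) correlated most.

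**Figure D5:**
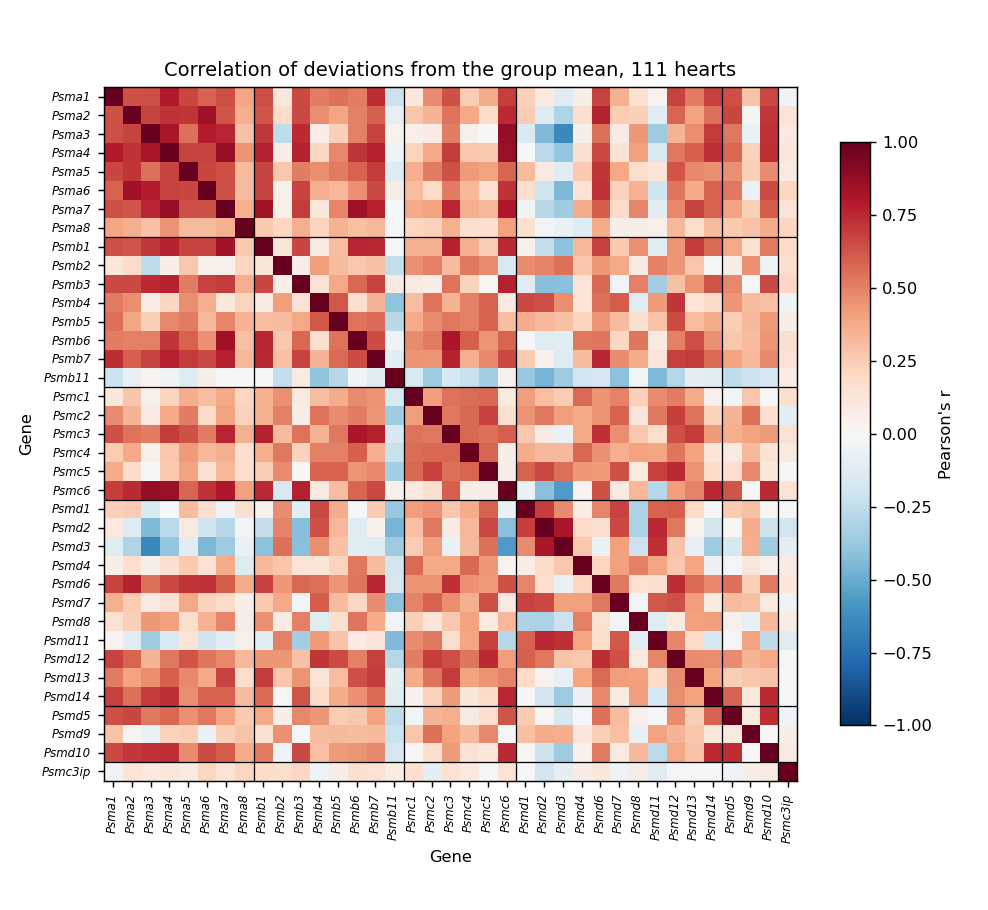
Pearson's r (colour) between each pair of the 37 members (both axes, grouped by role) of the deviations of log2 signal from the group mean over all hearts used. The alpha ring square is red (median r 0.676 for the 7 constitutive alpha genes), and Psmd2, Psmd3 and Psmd11 are red against each other and blue against Psma3 and Psmc6.

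The other genes of the pathway came from lists that held 32 measured genes, of which 5 were called across strains (15.6% beside 12% of all genes), 3 higher and 2 lower. Their median difference was -0.0125. Among the activators, which open the gate of the core in place of the 19S cap, Psme1, a subunit of the 11S activator, rose by 0.14 ± 0.0412 (adjusted p = 0.0141) in 7 of 7 strains. Its partner Psme2 was not called (0.043 ± 0.0436, adjusted p = 0.589). Psme4, the single-chain activator, fell by 0.19 ± 0.0479 (adjusted p = 0.00314) and was lower in CR in 7 of 7 strains. Of 5 chaperones of 20S assembly 2 rose, Psmg1 (0.12 ± 0.0317, adjusted p = 0.00608) and Psmg2 (0.12 ± 0.0411, adjusted p = 0.0447), which pair to seed the alpha ring. All 5 were above 0, among them Pomp, which guides the beta ring (0.10 ± 0.0415, adjusted p = 0.0895). The call of Psmg2 was lost in 14 of 24 other settings.

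The immunoproteasome genes, whose products replace the catalytic beta subunits in immune cells, were not called: Psmb8 differed by -0.097 ± 0.051 (adjusted p = 0.222), Psmb9 by -0.034 ± 0.0497 (adjusted p = 0.722) and Psmb10 by 0.14 ± 0.0577 (adjusted p = 0.0965). None of the 8 other components and bound proteins was called, among them the deubiquitinase gene Usp14 (-0.016 ± 0.0312, adjusted p = 0.797), and none of the 8 genes of the p97 segregase and shuttle factors, which hand ubiquitinated proteins to the proteasome. Without all arrays that stood apart, 3 of these 16 genes were called lower: Vcp, which encodes p97 itself (-0.14, adjusted p = 0.00308), Nploc4, which encodes a cofactor of p97 (-0.16, adjusted p = 0.00387), and Ecpas, which encodes a scaffold protein that binds the 26S particle (-0.12, adjusted p = 0.00517). That fit called 6.77% of all genes lower.

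Nfe2l1 encodes the transcription factor that raises proteasome genes when proteasome activity is short. It fell by 0.17 ± 0.0577 (adjusted p = 0.0439), lower in CR in 6 of 7 strains, and its call was lost in 9 of 24 other settings. The fall was -0.26 ± 0.0688 in 129S1/SvImJ (adjusted p = 0.0249), and the difference in B6C3F1/J was -0.66 ± 0.178 (adjusted p = 0.0748). Within groups Nfe2l1 deviated most closely with 3 of the 19S genes, at r = 0.861 with Psmd2, 0.839 with Psmd3 and 0.625 with Psmd11, and against Psmc6 (-0.599) and Psma3 (-0.571). Without the arrays that stood apart these were 0.685, 0.686, 0.432, -0.655 and -0.568. These are correlations over the same arrays and say nothing of one gene acting on another.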

How the data were processed

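Total RNA was taken from 112 hearts of male mice (7 strains by 2 diets, 8 mice a group) with 1 Affymetrix Mouse Gene 1.0 ST array per mouse and labelled from 5 µg of RNA. The authors made the deposited values, which are log2 signals per probe set, with the RMA-Sketch algorithm of Affymetrix Expression Console. The sources used here do not give its version. Of 35556 probe sets, 21789 had 1 symbol, 1621 had several and 12146 were unnamed here. The brightest probe set stood for a gene, which left 19938 genes. Of the members 5 had several probe sets: Psma3, Psma5, Psmb3, Psmc1 and Psmd2. Some of these sets may read pseudogenes or other copies, which was not checked. Array medians lay between 5.31 and 5.70 on the log2 scale. The number of arrays, and not a count of reads, limits the precision.

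Mean signals of the 14 strain-by-diet groups were fitted with limma 3.58.1 in R 4.3.3 to 111 arrays, without DBA/2J CR replicate 7, an array that the study left out as well. The contrasts were the unweighted mean CR difference over the strains, its interaction with strain, and the differences between strains within each diet. CR was also tested on the arrays of each strain alone. p-values were 2-sided, adjusted over all genes by Benjamini-Hochberg, and called under 0.05. Members were described by counts and medians beside all genes. The members and the lists were chosen with earlier results of these data known. Full values are given for called members, for the 4 with the smallest p of the interaction and of the strain difference in control hearts, for up to 2 rises and 2 falls called within a strain, and for members that are no constitutive subunit. The analysis code was tested on simulated data. Motifs were searched on both strands of RefSeq promoters of GRCm38.p6, and Psmb1, Psmb2, Psmb7, Psmc3, Psmd3 and Psmd7 had no entry. The Psma8 promoter was not searched.

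The alternatives were the array left out put back, each array that stood apart left out, each strain left out, another normalization, array weights, a filter on dim genes, marker levels as covariates, a replicate block, a 2-way ANOVA without moderation and the methods' t-test. Arrays stood apart where their correlation with their group failed Dixon's test in a group of 8.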

Additional observations from a re-analysis of the deposited data

Results flagged for a closer look

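Among 168 groups of 7 or 8 hearts tested over 12 named genes, 16 held a heart far from the rest by Dixon's test, which chance alone marks in about 1 of 20 groups. Of these, 5 were in CBA/J control replicate 1, the used array that correlated least with its group. There Psmb4 was at 8.764 on the log2 scale (other hearts of the group 10.09 to 10.23), Psmd7 at 8.196 (8.946 to 9.144), Psmd11 at 7.636 (8.201 to 8.517) and Psmb2 at 10.19 (10.48 to 10.61), while Psmc3ip was high at 5.729 (5.236 to 5.445). Without that array 11 members were called across strains in place of 7, in a fit that called 15.2% of all genes in place of 12%.

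In B6C3F1/J control replicate 7, 4 genes were high: Psmd14 at 9.357 (8.496 to 8.843), Psmb6 at 9.517 (8.926 to 9.098), Psmc3 at 8.681 (8.231 to 8.398) and Psma4 at 9.02 (8.27 to 8.521). In CBA/J CR replicate 2, Psmb3 was at 10.91 (11.23 to 11.43) and Psmb6 at 8.269 (8.75 to 9.117). The others were single values. Psmb2 was at 9.58 in C57BL/6J CR replicate 4 (10.09 to 10.48). Psmb4 was at 9.9 in C3H/HeJ CR replicate 1 (10.06 to 10.18), Psmd7 at 8.55 in CBA/J CR replicate 1 (8.867 to 9.098), Psmc3 at 7.674 in DBA/2J control replicate 5 (7.933 to 8.105) and Psma4 at 8.626 in CBA/J control replicate 2 (8.039 to 8.19).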

How the results depend on the processing

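Across strains 7 members were called, 5 higher and 2 lower. The percent after a count is the share of all genes tested that was called in the same setting, in either direction. Psmd11 stayed called in all 24 settings run, Psmb2 and Psmd14 in all but that with DBA/2J CR replicate 7, and none of the 12 named differences changed sign. With that array put back, 1 member was called (5.35%), 0 higher and 1 lower, strain differences in control hearts were called for 10 members (40.6%) in place of 29 (60.7%), and the median member difference was 0.00872 in place of 0.0505. More were called with array weights (13, of which 9 higher and 4 lower; 22.5%), without genes under the 40th percentile (11, 8 higher; 21.4%), with marker covariates (11, 8 higher; 15.4%), without CBA/J control replicate 1 (11, 4 lower; 15.2%), without all arrays that stood apart (11, 4 lower; 15.7%), by the 2-way ANOVA (10, 8 higher; 12.2%) and with a second quantile normalization (8, 4 lower; 11.8%). With 1 strain left out, the called members ranged from 3 (2 higher and 1 lower, without 129S1/SvImJ; 6.21%) to 12 (8 higher and 4 lower, without CBA/J; 13.8%); 3 were higher without BALB/cJ and 1 was lower without B6C3F1/J. The interaction was called for 0 members (0.712%), 10 with array weights (26.1%), 5 without all arrays that stood apart (9.18%) and 1 without C57BL/6J CR replicate 4 (3.28%). Within strains 8 calls became 19 with array weights, of which 7 were in 129S1/SvImJ (7.13%) and 2 in C57BL/6J (10.4%). B6C3F1/J, with 1 (0.908%), then held 10 (21.3%), and it held 8 from the fit of all groups (14.2%), where 129S1/SvImJ held 3 (2.30%) in place of 7 (6.83%), and 2 by the methods' t-test with Benjamini-Hochberg adjustment (0.913%), 3 without dim genes (3.23%) and 0 after the second normalization (0.828%). The cause was not tested. Replicate numbers were not taken to pair the mice, since not every pair's deviations correlated above 0.1. That check cannot exclude pairing: the median r by strain ran from -0.124 in C3H/HeJ (3 of 8 pairs above 0.1) to 0.304 in BALB/cJ (6 of 8). With the number as a replicate block 7 members were called across strains, 5 higher and 2 lower (12.2%), and 0 for the interaction (0.797%). Within strains the block gave 8 calls, 7 in 129S1/SvImJ (6.69%) and 1 in B6C3F1/J (2.33%). Of all called genes 63.9% were higher, 57.4% after the second normalization and 69.7% after centring on array medians. Settings that leave out all arrays that stood apart were, for tests within strains, strain differences and correlations, chosen after seeing the data.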
